A study of Mus musculus with 6 samples.

Results

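The genes described here encode the integrins, which hold cells to their surroundings, the proteins of the extracellular matrix that integrins bind, and the proteases and inhibitors that remodel this matrix. They were chosen by gene symbol, when earlier results of these data were already known. The symbols taken were those of integrin alpha and beta subunits, collagens, laminins, nidogens, fibulins, fibrillins, thrombospondins, the *Spock* genes, syndecans and glypicans. With them came the ADAM, ADAMTS and matrix metalloproteinase (MMP) families, the tissue inhibitors of metalloproteinases (TIMPs) and the lysyl oxidases. *Sparc*, *Tgfbi*, *Fn1*, *Tnc*, *Hspg2*, *Bgn*, *Dcn*, *Vcan* and *Optc* were added as single symbols. This gave 45 genes of the 5322 named ones on the array table, each read through 1 transcript cluster, the set of probes that reports a gene on this array. By its letters the same rule takes in 201 protein-coding genes of the mouse, and those that are not on the table have no value here.

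RNA came from N2A cells, a mouse neuroblastoma line, in 2 groups with 3 arrays each. The KAP1 knockdown cells carried the shA *Kap1* shRNA vector and the scrambled control cells a non-targeting one. Each well had received 1.5 µg of its shRNA plasmid with 300 ng pTK-Hyg, a plasmid for drug resistance, and after 3 days cells were kept for 7 days in hygromycin, so the RNA of a sample comes from many transfected cells that survived the drug and not from a clone. RNA was read on Affymetrix Mouse Gene 1.0 ST chips, 1 per sample. Nothing states that the triplicates were separate transfections, and the p-values therefore rest on a spread between arrays that may be purely technical. The sense strand of the shA stem, shown because it defines the KAP1 knockdown group, reads as follows.
*Kap1* shA: gtcgagttctggtcaatgg

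Values are linear array intensities, and fold changes are on the log2 scale, KAP1 knockdown minus scrambled control. A gene is said to have changed, risen or fallen where limma gave an adjusted p of at most 0.05 together with a fold of 1.4 or more, which is 0.49 on the log2 scale. The table lists 6951 transcript clusters whose largest adjusted p was 0.0365, and in 100% of them the 3 arrays of one group did not overlap the 3 of the other. The listed transcript clusters were thus picked for differing between these very groups, and the absence of overlap in all 45 genes tells nothing about them. Over the listed transcript clusters, the median of an array lay between 507 and 528 in the KAP1 knockdown and between 505 and 553 in the scrambled control. These medians do not describe the whole arrays. *Trim28*, the gene of KAP1, had intensities of 866, 861 and 936 in the KAP1 knockdown and 3377, 3443 and 3267 in the scrambled control. The knockdown arrays were thus at 26.4% of the control level, a log2 fold change of -1.92 (SE 0.054, adjusted p = 1.30e-08 in limma).

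An integrin is a pair of an alpha and a beta subunit that spans the cell membrane, binds collagen, laminin or fibronectin outside the cell and couples to actin through adaptor proteins inside it. Laminins, type IV collagen, nidogens and perlecan build the basement membrane, while fibronectin, fibulins and proteoglycans fill the matrix around it. MMPs and ADAMTS proteases cut matrix proteins, ADAM proteases release the outer parts of membrane proteins, and TIMPs block many of these enzymes. In the nervous system such contacts guide the migration of neural precursors and the growth of axons.

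Most of the genes were lower in the KAP1 knockdown. Of the 45, 25 fell (55.6%) and 2 rose (4.44%), while 17.6% of all transcript clusters fell and 15.0% rose. In either direction 60.0% of the genes changed, against 32.6% of the table. Of the genes taken as single symbols, *Sparc*, *Tgfbi*, *Fn1*, *Vcan* and *Optc* fell and *Hspg2* did not reach the fold. As the genes were picked with earlier results known, these shares may in part reflect that choice. At a fold of at least 2, 14 genes were lower (31.1%, against 5.06% of the table) and 1 was higher, *Itga1*, where 2.2% of the table were higher. The other 18 genes stayed under the fold of 1.4, with log2 fold changes between 0.16 and 0.48 in size, 12 of them negative and 6 positive. Intensity in these bulk samples cannot tell fewer expressing cells from less RNA in each cell.

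The median log2 fold change of the 45 genes was -0.63, against 0.17 over all transcript clusters. A negative sign was found for 82.2% of the genes and for 48.7% of the transcript clusters. Set against the control mean, the median gene stood at -0.60, -0.63 and -0.55 on the 3 knockdown arrays, so no knockdown array stood apart. Replicate 1 was the highest of the 3 control arrays for 24 of the 45 genes (53.3%) and for 56.6% of all transcript clusters. The median SD within a group was 0.061 in the KAP1 knockdown and 0.062 in the scrambled control on the log2 scale. The adjusted p of the genes ran from 1.26e-10 to 1.12e-02 in limma. Picking transcript clusters for differing between the groups favours a small spread, so neither is a trait of these genes.

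**Figure D1:**
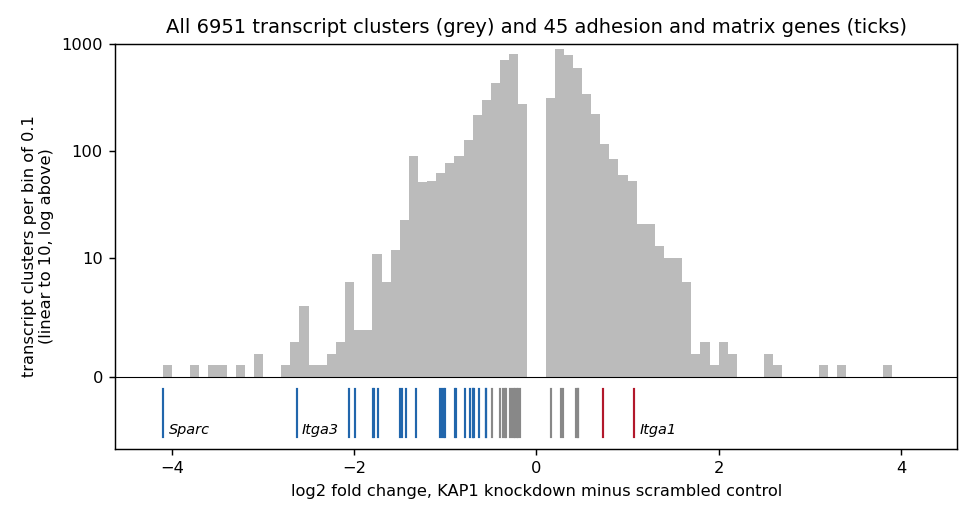
The grey bars count all 6951 transcript clusters by log2 fold change, KAP1 knockdown minus scrambled control, on an axis that is linear to 10 and logarithmic above. Each tick under the axis is 1 of the 45 genes (blue fell, red rose, grey under the fold of 1.4), and 37 of them lie left of 0, with *Sparc* at -4.10.

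**Figure D2:**
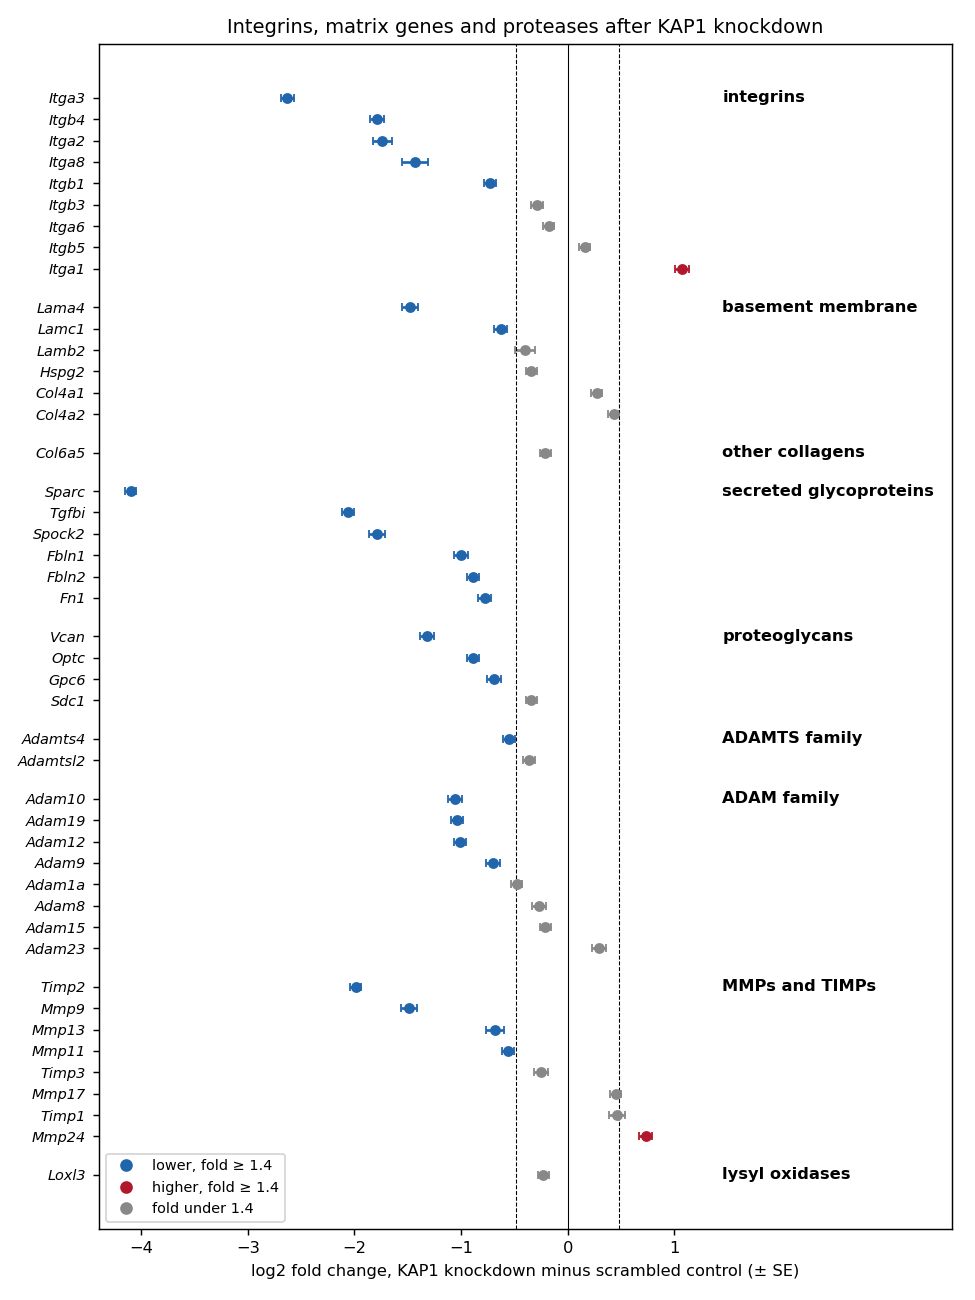
Points give the log2 fold change of each of the 45 genes, KAP1 knockdown minus scrambled control, with bars of 1 SE and the genes grouped by role. The dashed lines mark a fold of 1.4, and red points beyond the right one are *Itga1* at 1.07 and *Mmp24* at 0.73.

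By role, the secreted glycoproteins moved most uniformly, with 6 of 6 genes lower and a median log2 fold change of -1.40. Among them, *Sparc*, *Tgfbi* and *Fn1* were taken as single symbols with earlier results known, so this uniformity may in part reflect the choice. Integrins had 5 lower and 1 higher of 9 (median -0.73), and proteoglycans 3 lower of 4 (median -0.79). Among the proteases and inhibitors, 4 of 8 ADAM genes fell (median -0.59), 1 of 2 ADAMTS genes fell, and MMPs and TIMPs had 4 lower and 1 higher of 8 (median -0.40). Basement membrane genes had 2 lower of 6 (median -0.37), and neither the only other collagen nor the only lysyl oxidase on the table changed. These groups hold few genes, and differences between them were not tested.

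**Figure D3:**
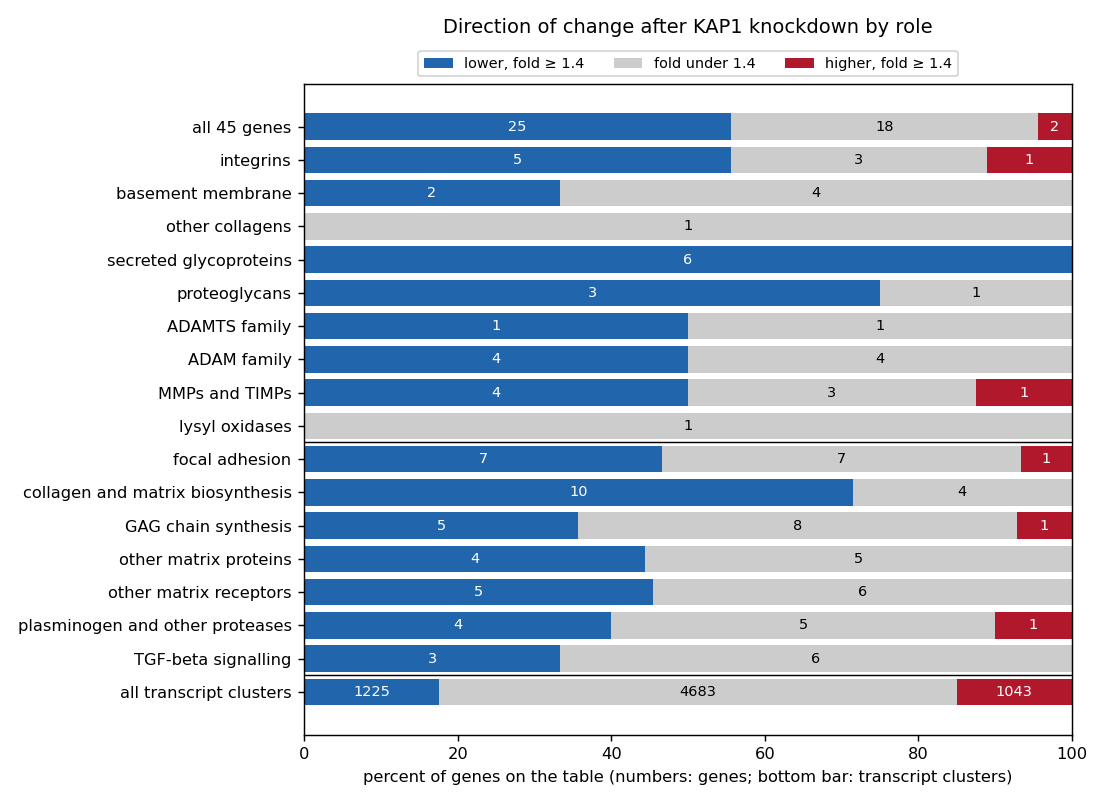
Bars give the percent of genes that fell (blue), stayed under the fold of 1.4 (grey) or rose (red) in the KAP1 knockdown relative to the scrambled control, with the number of genes printed in each segment. The 45 genes and their roles stand above the upper line, 7 lists of related genes below it, and all 6951 transcript clusters at the bottom, where 1225 fell and 1043 rose.

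*Sparc*, a secreted glycoprotein that binds collagen and loosens the contact of cells with the matrix, fell further than any of the other 44 genes. Its transcript cluster (10386058) had intensities of 99, 109 and 106 in the KAP1 knockdown, against 1819, 1808 and 1739 in the scrambled control. The knockdown arrays were at 5.85% of the control level, a log2 fold change of -4.10 (SE 0.055, adjusted p = 1.26e-10 in limma). The 250 bases upstream of its start, from RefSeq on GRCm38.p6 (chr11:55420081-55420330, minus strand), are shown for this deepest fall. They hold 4 CG pairs and none of the 5 motifs searched for in promoters, which are spelled out further on.
Sparc: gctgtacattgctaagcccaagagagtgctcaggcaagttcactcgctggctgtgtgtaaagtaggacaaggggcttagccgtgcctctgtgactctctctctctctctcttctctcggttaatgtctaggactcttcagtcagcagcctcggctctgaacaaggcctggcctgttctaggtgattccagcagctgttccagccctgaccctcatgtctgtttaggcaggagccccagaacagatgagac

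*Tgfbi* encodes a secreted protein that is induced by TGF-beta and binds collagens and integrins. It had intensities of 149, 146 and 157 in the KAP1 knockdown and 612, 657 and 615 in the scrambled control (log2 fold change -2.06, SE 0.055, adjusted p = 8.42e-09 in limma). *Spock2*, a proteoglycan related to SPARC, had 328, 384 and 319 in the KAP1 knockdown and 1235, 1167 and 1158 in the scrambled control (log2 fold change -1.79, SE 0.074). All 3 genes were thus lower on every knockdown array by more than a factor of 2, with replicate 2 of the KAP1 knockdown the highest of its group for *Sparc* and *Spock2*.

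The fibulins and fibronectin fell less. *Fbln1*, a calcium-binding glycoprotein of basement membranes and elastic fibres, had 2520, 2361 and 2736 in the KAP1 knockdown, against 5171, 5293 and 4750 in the scrambled control. Its knockdown level was 50.1% of control (log2 fold change -0.999, SE 0.069), which left it just under a fold of 2. The related *Fbln2* averaged 1366 ± 70.1 in the KAP1 knockdown and 2531 ± 73.6 in the scrambled control (SD, n = 3 each; log2 fold change -0.89). *Fn1*, fibronectin, the ligand of many integrins, had 3018, 3081 and 3178 in the KAP1 knockdown, against 5690, 5139 and 5139 in the scrambled control. It stood at 58.1% of control (log2 fold change -0.78, SE 0.058, adjusted p = 2.49e-06 in limma), the smallest change of the 6 secreted glycoproteins.

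**Figure D4:**
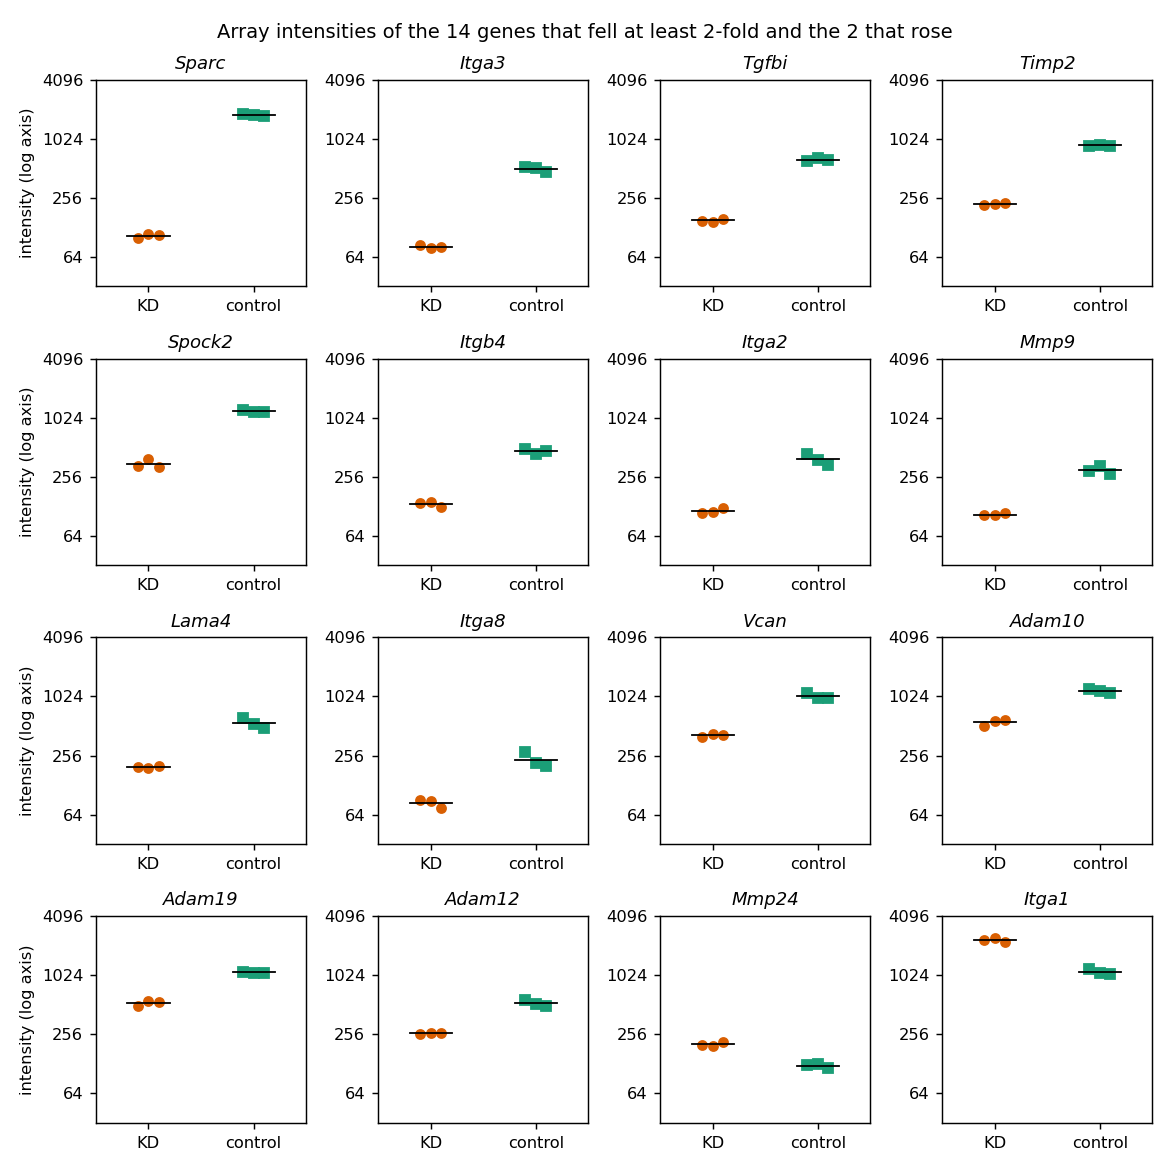
Each panel plots the intensity on the 3 KAP1 knockdown arrays (left) and the 3 scrambled control arrays (right) on a logarithmic axis, with a line at the group mean, for the 14 genes that fell at least 2-fold and for *Mmp24* and *Itga1*, which rose. *Sparc* has the widest gap, with knockdown arrays at 99 to 109 and control arrays at 1739 to 1819.

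Among the integrins, the largest falls were in subunits that take part in laminin and collagen receptors. *Itga3*, whose product pairs with the beta 1 subunit to bind laminins, had intensities of 85, 78 and 81 in the KAP1 knockdown and 524, 517 and 472 in the scrambled control. It fell to 16.1% of the control level (log2 fold change -2.63, SE 0.060, adjusted p = 5.00e-09 in limma). *Itgb4*, which pairs only with alpha 6 and anchors epithelial cells to laminin in hemidesmosomes, had 137, 142 and 125 in the KAP1 knockdown, against 488, 438 and 468 in the scrambled control (log2 fold change -1.79, SE 0.065). Its partner *Itga6* did not reach the fold threshold, with 3949, 4082 and 4085 in the KAP1 knockdown and 4582, 4803 and 4313 in the scrambled control (log2 fold change -0.18, SE 0.055). *Itgb1*, the beta subunit shared by most matrix receptors, fell to 60.3% of control, with 2316, 2334 and 2502 in the KAP1 knockdown and 4132, 3929 and 3803 in the scrambled control (log2 fold change -0.73, SE 0.056).

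The receptors of collagen moved in opposite directions. The subunits alpha 1 and alpha 2 both pair with beta 1, and alpha 1 is known to favour collagen IV while alpha 2 favours fibrillar collagens. *Itga1* had intensities of 2354, 2450 and 2220 in the KAP1 knockdown, against 1201, 1093 and 1056 in the scrambled control. It was at 210% of control (log2 fold change 1.07, SE 0.065, adjusted p = 6.77e-07 in limma) and was the only integrin that rose. *Itga2* had 109, 111 and 124 in the KAP1 knockdown and 436, 378 and 340 in the scrambled control, which is 29.8% of control (log2 fold change -1.74, SE 0.091, adjusted p = 2.63e-07 in limma). The ratio of *Itga1* to *Itga2* was 7.01 times higher in the KAP1 knockdown than in the scrambled control (log2 change 2.81, SE 0.11).

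On GRCm38.p6 *Itga2* and *Itga1* lie next to each other on chromosome 13 on the same strand, with 0 protein-coding genes between them. Another gene, *Pelo*, overlaps the span of *Itga1*, and how the probes divide the pair was not examined. The 250 bases upstream of each start are set side by side because these neighbours moved apart (chr13:115101965-115102214 for *Itga1* and chr13:114932101-114932350 for *Itga2*, both minus strand). The window of *Itga1* holds 10 CG pairs and that of *Itga2* 12, and neither holds any of the 5 motifs.
Itga1: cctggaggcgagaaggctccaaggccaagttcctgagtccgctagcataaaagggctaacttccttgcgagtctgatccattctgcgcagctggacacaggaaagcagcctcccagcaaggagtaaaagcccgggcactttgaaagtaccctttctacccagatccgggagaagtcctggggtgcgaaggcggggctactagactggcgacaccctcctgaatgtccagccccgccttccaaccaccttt
Itga2: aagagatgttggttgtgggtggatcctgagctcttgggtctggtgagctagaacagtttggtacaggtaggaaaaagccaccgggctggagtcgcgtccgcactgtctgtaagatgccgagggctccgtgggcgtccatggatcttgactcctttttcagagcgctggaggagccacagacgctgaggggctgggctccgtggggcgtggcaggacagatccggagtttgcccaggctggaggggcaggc

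The integrins that bind the RGD sequence of fibronectin, vitronectin and related ligands differed among themselves. *Itga8*, which pairs with beta 1, had 90, 89 and 75 in the KAP1 knockdown, against 280, 214 and 198 in the scrambled control (log2 fold change -1.43, SE 0.12, adjusted p = 6.65e-06 in limma). Its control arrays were spread more widely than those of the other 44 genes, with replicate 1 the highest. *Itgb3* and *Itgb5*, beta subunits that pair with alpha V, stayed under the fold threshold and had opposite signs. *Itgb3* had 113, 127 and 124 in the KAP1 knockdown, against 148 on each of the 3 control arrays (log2 fold change -0.29, SE 0.057), and this tie, which is also in the unrounded table, is no evidence of precision. *Itgb5* had 3149, 3331 and 3288 in the KAP1 knockdown and 2868, 2975 and 2892 in the scrambled control (log2 fold change 0.16, SE 0.050).

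Changes of subunits that share a receptor were compared as log2 ratios on each array. The ratio of *Itga3* to its partner *Itgb1* changed by -1.90 (SE 0.060) and that of *Itgb4* to *Itga6* by -1.61 (SE 0.10), KAP1 knockdown minus scrambled control. *Itga3* and *Itgb4* thus changed more than their partners. In contrast, the ratio of *Itga6* to *Itgb1* changed by 0.55 (SE 0.051). A total of 8 such ratios of receptors, enzymes or chains were taken, chosen with the single genes' values known. In each, the 3 knockdown arrays lay apart from the 3 control arrays. This gives a two-sided exact permutation p of 0.1, the smallest that 3 arrays against 3 allow, and 0.1 after Benjamini-Hochberg adjustment. In *Itga1* to *Itga2*, *Timp2* to *Timp1* and *Mmp9* to *Timp1* the genes moved in opposite directions. As all listed genes were picked for not overlapping, these ratios had to separate, and their p is no test result. A shift of such a ratio means only that the 2 genes moved unequally, and 1 of them may have stayed under the fold threshold, as *Itga6* did.

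**Figure D5:**
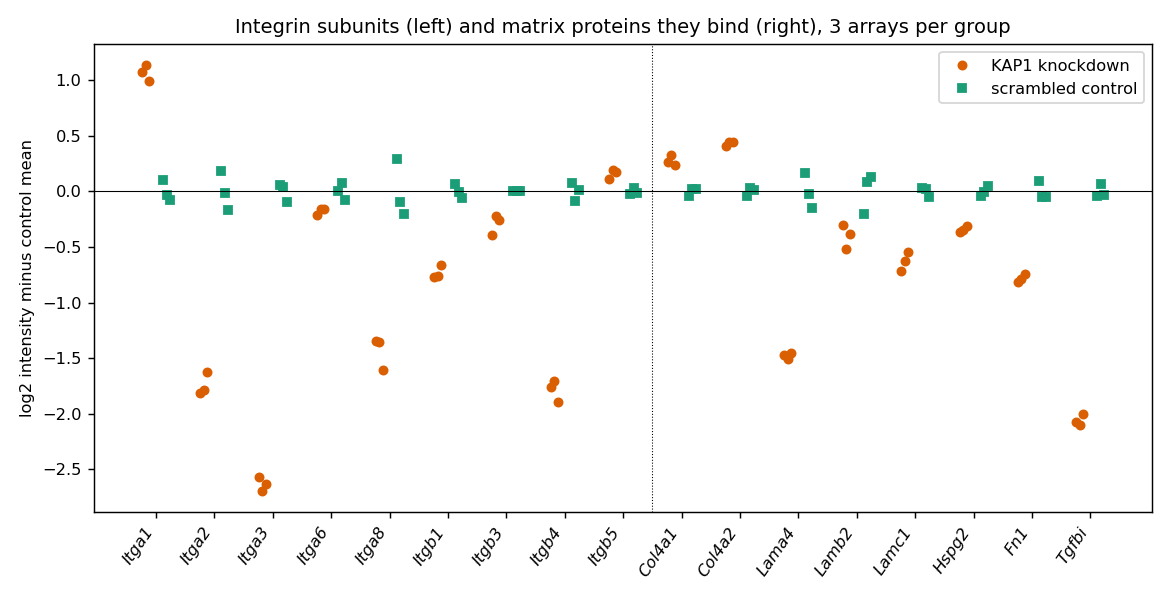
Log2 intensities of the 9 integrin subunits (left of the dotted line) and of 8 matrix genes (right), each minus the mean of the control arrays, with the 3 KAP1 knockdown arrays as circles and the 3 scrambled control arrays as squares. *Itga1* lies above 0 on the knockdown arrays while *Itga2*, *Itga3* and *Itgb4* lie below, and *Col4a1* and *Col4a2* lie above while the 3 laminin genes lie below.

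The basement membrane genes split between laminins and collagen IV. Laminins are trimers of an alpha, a beta and a gamma chain. *Lama4*, an alpha chain known from vessels and nerve, had intensities of 196, 191 and 199 in the KAP1 knockdown, against 612, 537 and 492 in the scrambled control (log2 fold change -1.48, SE 0.076, adjusted p = 2.50e-07 in limma). *Lamc1*, the gamma chain of most laminins, fell less, with 1236, 1311 and 1391 in the KAP1 knockdown and 2069, 2060 and 1957 in the scrambled control (log2 fold change -0.63, SE 0.059). *Lamb2*, a beta chain, stayed under the fold threshold at 148, 127 and 140 in the KAP1 knockdown and 158, 193 and 199 in the scrambled control (log2 fold change -0.40, SE 0.093). Replicate 1 was the lowest control array of *Lamb2*, and without it the value was -0.51, past the threshold. *Hspg2*, the heparan sulphate proteoglycan perlecan, averaged 589 ± 11.8 in the KAP1 knockdown and 745 ± 21.8 in the scrambled control (SD, n = 3 each; log2 fold change -0.34).

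Both genes of the main collagen IV trimer leaned the other way, under the fold threshold. *Col4a1* had 416, 433 and 407 in the KAP1 knockdown, against 336, 351 and 351 in the scrambled control (log2 fold change 0.27, SE 0.051). *Col4a2* had 925, 945 and 948 in the KAP1 knockdown, against 676, 710 and 701 in the scrambled control (log2 fold change 0.43, SE 0.048). These genes lie head to head on chromosome 8, with annotated starts 21 bases apart in RefSeq. Their ratio, *Col4a2* to *Col4a1*, changed by 0.16 (SE 0.028) on the log2 scale, the smallest change of the 8 ratios. *Col6a5*, a chain of collagen VI and the only other collagen on the table, averaged 744 ± 20.6 in the KAP1 knockdown and 859 ± 37.5 in the scrambled control (SD, n = 3 each; log2 fold change -0.21).

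All 4 proteoglycan genes had negative fold changes, and 3 of them fell. *Vcan*, versican, a large chondroitin sulphate proteoglycan of the brain matrix and of migrating cells, had intensities of 391, 422 and 418 in the KAP1 knockdown, against 1120, 978 and 977 in the scrambled control. It stood at 40.0% of control (log2 fold change -1.32, SE 0.067, adjusted p = 2.18e-07 in limma). *Optc*, opticin, a small leucine-rich protein first known from the eye, had 150, 145 and 142 in the KAP1 knockdown and 265, 283 and 260 in the scrambled control (log2 fold change -0.89, SE 0.054). *Gpc6*, a glypican that carries heparan sulphate at the cell surface, had 517, 573 and 595 in the KAP1 knockdown and 948, 886 and 890 in the scrambled control (log2 fold change -0.69, SE 0.064). *Sdc1*, a syndecan that acts as a co-receptor of integrins, averaged 705 ± 8.96 in the KAP1 knockdown and 894 ± 22.0 in the scrambled control (SD, n = 3 each), which is under the fold threshold (log2 fold change -0.34).

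The ADAM family holds membrane proteases that release growth factors and receptors from the cell surface. *Adam10*, the sheddase of Notch and cadherins, had 517, 575 and 590 in the KAP1 knockdown, against 1230, 1161 and 1115 in the scrambled control (log2 fold change -1.06, SE 0.066, adjusted p = 7.87e-07 in limma). *Adam19*, which is known to process neuregulin, had 494, 563 and 544 in the KAP1 knockdown, against 1113, 1092 and 1081 in the scrambled control (log2 fold change -1.04, SE 0.059). *Adam12*, named meltrin alpha from fusing muscle cells, had 259, 266 and 265 in the KAP1 knockdown, against 571, 527 and 498 in the scrambled control (log2 fold change -1.01, SE 0.060). These genes thus stood at 48.0%, 48.7% and 49.5% of their control levels. *Adam9*, another active member, had 2202, 2377 and 2336 in the KAP1 knockdown and 4034, 3595 and 3611 in the scrambled control (log2 fold change -0.70, SE 0.062). The ratio of *Adam10* to *Adam9* changed by -0.36 (SE 0.040) on the log2 scale.

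The other 4 ADAM genes did not reach the fold threshold. *Adam1a*, a subunit of a sperm protein, lay just outside it with 56, 56 and 54 in the KAP1 knockdown and 78, 75 and 79 in the scrambled control (log2 fold change -0.48, SE 0.049). Its value crossed the threshold at -0.49 in the unrounded table, and at -0.49 to -0.50 without replicate 1 or replicate 2 of the KAP1 knockdown, or without replicate 2 of the scrambled control. *Adam8* and *Adam15* had log2 fold changes of -0.27 and -0.21. *Adam23*, a neuronal member without protease activity, was the only ADAM gene with a positive value, at 977, 925 and 1038 in the KAP1 knockdown and 831, 830 and 741 in the scrambled control (log2 fold change 0.29, SE 0.066).

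Of the ADAMTS family, which is secreted, *Adamts4*, an enzyme that cuts versican and aggrecan, fell just past the threshold. It had 699, 748 and 724 in the KAP1 knockdown, against 1105, 1062 and 1018 in the scrambled control (log2 fold change -0.55, SE 0.054, adjusted p = 1.54e-05 in limma). *Adamtsl2*, a family member that lacks the protease part, averaged 107 ± 5.77 in the KAP1 knockdown and 137 ± 3.61 in the scrambled control (SD, n = 3 each; log2 fold change -0.36). *Loxl3*, which belongs to the enzymes that cross-link collagen and elastin, averaged 256 ± 11 in the KAP1 knockdown and 301 ± 5.51 in the scrambled control (SD, n = 3 each; log2 fold change -0.23).

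The MMPs and their inhibitors changed in both directions. *Timp2*, a secreted inhibitor of MMPs that also takes part in the activation of pro-MMP2, had intensities of 217, 222 and 225 in the KAP1 knockdown, against 871, 894 and 865 in the scrambled control. It fell to 25.2% of control (log2 fold change -1.99, SE 0.048, adjusted p = 5.06e-09 in limma), the largest change among the proteases and inhibitors. *Timp1*, an inhibitor of many of the same enzymes, had 386, 392 and 422 in the KAP1 knockdown and 270, 325 and 279 in the scrambled control (log2 fold change 0.46, SE 0.076), the value nearest to the threshold on its positive side. It crossed the threshold under median centring (0.49), without replicate 1 of the KAP1 knockdown (0.49) or without replicate 2 of the scrambled control (0.54). *Timp3*, an inhibitor that stays bound to the matrix, averaged 57.3 ± 1.53 in the KAP1 knockdown and 68.3 ± 5.77 in the scrambled control (SD, n = 3 each; log2 fold change -0.25).

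The ratio of *Timp2* to *Timp1* changed by -2.45 (SE 0.074) on the log2 scale, a 5.45-fold shift. Their upstream windows are shown for this contrast, with the CCAAT box (ATTGG on the other strand) and the GC box (CCGCCC on the other strand) in capitals (chr11:118355412-118355661, minus strand, for *Timp2*, and chrX:20869916-20870165, plus strand, for *Timp1*). Both windows hold 1 of each box, at 162 and 37 bases before the start in *Timp2* and at 190 and 8 bases in *Timp1*. The number of CG pairs is 21 in *Timp2* and 6 in *Timp1*.
Timp2: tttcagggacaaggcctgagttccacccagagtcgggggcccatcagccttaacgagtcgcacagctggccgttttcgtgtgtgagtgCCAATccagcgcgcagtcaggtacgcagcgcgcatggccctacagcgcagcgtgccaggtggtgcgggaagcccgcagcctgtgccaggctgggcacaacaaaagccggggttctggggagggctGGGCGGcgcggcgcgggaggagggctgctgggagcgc
Timp1: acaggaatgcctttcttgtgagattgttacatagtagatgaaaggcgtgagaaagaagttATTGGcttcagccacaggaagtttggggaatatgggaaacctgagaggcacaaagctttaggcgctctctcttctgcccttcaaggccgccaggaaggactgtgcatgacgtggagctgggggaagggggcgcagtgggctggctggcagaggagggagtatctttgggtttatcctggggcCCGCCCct

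Among the enzymes, *Mmp9*, a gelatinase that cuts collagen IV and denatured collagen, had 103, 103 and 109 in the KAP1 knockdown, against 289, 329 and 272 in the scrambled control (log2 fold change -1.49, SE 0.072, adjusted p = 1.57e-07 in limma). Its ratio to the inhibitor *Timp1* changed by -1.96 (SE 0.041) on the log2 scale. *Mmp13*, a collagenase, had 60, 51 and 51 in the KAP1 knockdown and 95, 85 and 80 in the scrambled control (log2 fold change -0.68, SE 0.084). *Mmp11*, a secreted member known from stroma around tumours, was just inside the threshold with 441, 461 and 466 in the KAP1 knockdown and 698, 662 and 653 in the scrambled control (log2 fold change -0.56, SE 0.052). These 3 secreted enzymes fell, whereas both membrane-bound ones had positive values. *Mmp24*, a membrane-type MMP known from neurons, rose to 166% of control, with 199, 196 and 214 in the KAP1 knockdown and 124, 127 and 116 in the scrambled control (log2 fold change 0.73, SE 0.058, adjusted p = 4.26e-06 in limma). *Mmp17*, which is anchored to the membrane by a lipid, had 1004, 1056 and 1072 in the KAP1 knockdown and 742, 774 and 774 in the scrambled control (log2 fold change 0.45, SE 0.051), under the fold threshold.

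Upstream windows of 250 bases were searched on both strands in RefSeq on GRCm38.p6 for the AP-1 site TGANTCA, the TATA box TATAAA, the CCAAT box CCAAT, the GC box GGGCGG and the E-box CACGTG. The table of windows holds 32 of the 45 genes. Of all 45, with or without a window, 55.6% fell, and the counts of fallen genes that follow were not tested against a share. The GC box was found in 20 of these genes, of which 9 fell, and in 32.7% of all 32851 windows. The CCAAT box was in 11 genes, of which 4 fell, and in 33.8% of windows. The E-box was in *Adam10*, *Adam19* and *Fbln1* (6.02% of windows), all of which fell. The AP-1 site was in *Adam19* and *Mmp13* (6.75% of windows), which fell, and the TATA box in *Mmp13* and in *Adamtsl2*, which stayed under the fold threshold (12.4% of windows). CG pairs per window numbered 10 in the median window of these genes (range 1 to 33) and 6 in the median of all windows. Some genes have more than 1 window, so their share is not set against that of all windows. The last 60 bases before the start of *Mmp13* are shown because they hold both the AP-1 site and the TATA box (chr9:7272454-7272513, plus strand), with these in capitals, 35 and 16 bases before the start. A match of letters is a description and not a bound site.
Mmp13: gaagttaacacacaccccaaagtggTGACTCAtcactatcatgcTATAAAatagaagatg

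The 45 genes lie on 17 chromosomes and those that fell on 11. Chromosome 11 holds 6 of them, of which *Sparc*, *Itga3*, *Itgb4*, *Timp2* and *Adam19* fell, while 12.2% of its named genes fell. The direction of change was uneven between chromosomes over the whole table. The shares of named genes with a negative value were 12.7% on chromosome 5, 19.4% on chromosome 18, 76.0% on chromosome 9, 76.9% on chromosome 7 and 77.6% on chromosome 17. These 5 most uneven chromosomes hold 8 of the 45 genes, and among the 37 on the others 22 were lower and 2 higher. On those other chromosomes the share of named genes that fell ran from 9.47% on chromosome 14 to 38.7% on chromosome X. The span of 10 of the 45 genes overlaps another protein-coding gene in RefSeq, among them *Timp1* and *Syn1*, *Timp3* and *Syn3*, *Itgb4* and *Galk1*, and *Timp2* and *Cep295nl*.

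Genes that act beside the integrins and the matrix were read from 7 lists, whose counts stand against the 17.6% lower and 15.0% higher over all transcript clusters. Of 31 focal adhesion genes listed, 15 were on the table, of which 7 fell and 1 rose (median log2 fold change -0.38). *Tln2*, a talin that activates integrins, had 127, 125 and 130 in the KAP1 knockdown, against 812, 765 and 742 in the scrambled control (log2 fold change -2.60). The filamins *Flna* (-1.33) and *Flnc* (-1.12), which cross-link actin, and *Vcl* (-0.95), vinculin, fell as well. *Parvb*, a parvin of the integrin-linked kinase complex, was the 1 that rose (0.79) and is named for that reason, after its value was seen. The kinase gene of that complex, *Ilk*, had a log2 fold change of -0.38.

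Of 29 listed genes for the biosynthesis of collagen and matrix, 14 were on the table, of which 10 fell and 0 rose (median -0.60). They included *P4ha3*, a prolyl hydroxylase (-1.01), *Plod2* and *Plod1*, lysyl hydroxylases (-0.83 each), and *Mia3*, which exports collagen from the endoplasmic reticulum (-0.73). Of 39 listed genes for heparan and chondroitin sulphate chains, 14 were on the table, of which 5 fell and 1 rose (median -0.40). The sulphotransferase *Chst15*, which acts on chondroitin sulphate, had 71, 71 and 73 in the KAP1 knockdown and 209, 183 and 204 in the scrambled control (log2 fold change -1.47). *Hs3st2*, which acts on heparan sulphate and is known from neurons, was the gene that rose, with 440, 433 and 397 in the KAP1 knockdown and 153, 148 and 155 in the scrambled control (log2 fold change 1.48). *Glce* and *Chst14*, which convert the uronic acid of heparan sulphate and sulphate dermatan, had -0.71 and -0.64.

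Of 55 further matrix proteins listed, 9 were on the table, of which 4 fell and 0 rose (median -0.38), namely *Ltbp4*, which binds latent TGF-beta in elastic fibres (-1.13), the brain proteoglycan *Bcan* (-0.83), *Ccn1* (-0.54) and *Ltbp3* (-0.49). With 16 added to each intensity before the logarithm, 2 of them were past the threshold. Of 20 other matrix receptors and partners listed, 11 were on the table, of which 5 fell and 0 rose (median -0.27). Those with the largest changes were *Cd47*, a receptor of thrombospondin (-0.95), the tetraspanin *Cd81* (-0.86), *Dag1*, dystroglycan (-0.78), and *Mcam* (-0.67).

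Of 22 listed genes of the plasminogen system and other proteases and inhibitors, 10 were on the table, of which 4 fell and 1 rose (median -0.33). *Serpinf1*, a secreted serpin, had 136, 129 and 126 in the KAP1 knockdown, against 472, 472 and 450 in the scrambled control (log2 fold change -1.83), and *Plaur*, the receptor of urokinase, had a log2 fold change of -1.40. *Serpinb6a*, an intracellular serpin, rose (0.57), and *Pcsk6*, a proprotein convertase, fell (-0.56). Without replicate 1 of the KAP1 knockdown or replicate 1 of the scrambled control, 2 genes of this list were higher. Of 20 listed TGF-beta signalling genes, 9 were on the table, of which 3 fell and 0 rose (median -0.40). *Tgfb2*, a ligand, had 222, 261 and 231 in the KAP1 knockdown and 791, 689 and 698 in the scrambled control (log2 fold change -1.61), and the receptors *Tgfbr1* and *Acvr1* had -1.07 and -0.71.

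Markers of cell types were read beside these genes. Of 12 markers of sympathetic neuroblasts, from which neuroblastoma derives, 10 were on the table, with 4 lower (*Isl1*, *Gata3*, *Phox2a* and *Chga*) and 2 higher (*Th* and *Dbh*). Their summed intensity was 16542 to 17361 in the KAP1 knockdown and 19724 to 20439 in the scrambled control. Of 10 markers of mesenchymal cells, which make much of the matrix in tissues, 4 were on the table and 0 changed, with a sum of 12287 to 12488 in the KAP1 knockdown and 14300 to 14483 in the scrambled control, most of it *Vim*. Of 6 Schwann and neural crest markers, *Erbb3* and *Egr2* were on the table and both rose (log2 fold changes 0.82 and 0.75), with a sum of 518 to 623 in the KAP1 knockdown and 305 to 334 in the scrambled control. These 2 genes do not stand for the lineage. Outside the list, the neural crest genes *Ngfr* and *Pax3* fell (log2 fold changes -1.44 and -1.66). They were named after their values were seen and do not stand for the lineage either. Of the astrocyte, endothelial and macrophage markers, 4 of each, 1 of each was on the table, *Sox9* (-1.22, lower), *Pecam1* (0.46) and *Cd68* (-0.48), the last 2 under the fold threshold. The lowest value of the listed markers on any array was 54, and the lowest of the whole table was 22. Since no value on the table is 0, an intensity does not by itself show that a marker is expressed. The part of the markers in the changes of the matrix genes was not tested.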

How the data were processed

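The authors labelled 200 ng RNA per sample and deposited linear intensity values after Robust Multi-array Average (RMA) normalisation in GeneSpring GX, as whole numbers. Their unrounded version, also deposited, differed by at most 0.5. Per the labels, limma was used. No genome build and no rule for listing a transcript cluster are given in the sources used here. Groups follow the labels of the arrays. The study's methods give 200 µg/ml hygromycin and the labels 200 mg/ml.

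The main comparison used limma 3.58.1 (lmFit, eBayes; R 4.3.3) on log2 intensities of all 6 arrays with no block for replicate number and with Benjamini-Hochberg adjustment over all 6951 transcript clusters. The adjusted p covers only the listed transcript clusters. A single gene is annotated for 5733 of them, several for 384 and none for 834; 1 transcript cluster shared by a gene of the rule and another gene was left out. The number of arrays limits the precision. All 45 symbols matched RefSeq genes of GRCm38.p6, which gave chromosomes and promoter windows. The fit was tested on simulated data. Counts were made in Python 3.11.15. The genes, the lists, the ratios and the rule for named genes (those changed at least 2-fold, those that rose, those nearest the threshold, and up to 4 changed genes of each list with the largest change) were chosen with earlier results of these data known. Alternatives are given in the closing section. Proteins were not analysed here.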

Additional observations from a re-analysis of the deposited data

How the results depend on the processing

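Under the unrounded table, median centring, quantile normalization, eBayes with trend and robust settings, a filter on dim transcript clusters (both group means under 6 on the log2 scale), a pseudocount of 16, an adjusted p of at most 0.01 and each array left out, 25 to 26 of the 45 genes were lower and 2 to 3 higher. Of 585 recomputed log2 fold changes of single genes, 0 changed sign or lost the threshold and 9 gained it, in *Timp1*, *Adam1a*, *Lamb2* and *Mmp17*. At a fold of at least 2, 14 genes were lower and 1 higher (352 and 153 of all transcript clusters). The counts lower at that fold were 4 for integrins, 1 for the basement membrane, 3 for secreted glycoproteins and 1 for proteoglycans. They were 3 for the ADAM family, 0 for the ADAMTS family and 2 for MMPs and TIMPs, with 0 of the MMPs and TIMPs higher. In the lists they were 3 for focal adhesion (0 higher), 1 for collagen and matrix biosynthesis, 1 for heparan and chondroitin sulphate synthesis (with *Hs3st2* higher), 1 for other matrix proteins, 0 for other matrix receptors and 2 for the plasminogen system and other proteases (0 higher). Of the TGF-beta signalling list, *Tgfb2* and *Tgfbr1* were lower at that fold. The MMPs and TIMPs had 2 higher under median centring and under quantile normalization, and 1 to 2 with an array left out, and the plasminogen list likewise 1 to 2. Other matrix proteins had 2 lower with a pseudocount of 16. The cause was not tested. Over all transcript clusters, 1217 were higher and 1123 lower under median centring, 1207 and 1135 under quantile normalization, 1202 and 1099 without replicate 1 of the scrambled control, and 907 and 1337 without replicate 3 of the scrambled control, against 1043 and 1225 in the comparison reported.

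Both groups use the replicate numbers 1 to 3. Deviations from the group means correlated at -0.17 to 0.04 between arrays of the same number and at -0.09 to 0.20 between others. These values show no pairing by number, but with 3 arrays per group they cannot exclude one. With the replicate number as a block, 25 of the genes were lower and 2 higher, as without it (1225 and 1043 of all transcript clusters). Without the 5 most uneven chromosomes, an alternative chosen after the data were seen, 22 of the remaining 37 genes were lower and 2 higher. Of the remaining transcript clusters, 946 were lower and 795 higher. Since each gene had 1 transcript cluster, counting all transcript clusters of the genes gave 25 and 2 again. Leaving out genes named for a binding partner also gave 25 and 2, because none of the 45 genes is so named. Depth does not apply to array intensities, and *Mmp13*, *Adam1a* and *Timp3*, with knockdown intensities of 51 to 60, lie closest of the 45 genes to the lowest value of the table, 22.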
